A study of Xenopus laevis with 64 samples.

Results

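PER and PTU, inhibitors that act inside the thyroid gland, were set against shared controls in the tail of Xenopus laevis tadpoles. PER is perchlorate, given in the water at 4 mg/L, and PTU is propylthiouracil, given at 20 mg/L. Exposure began at NF stage 54, at the start of the growth phase of metamorphosis, and tails were taken after 48 h. The control tadpoles came from the same exposure set and received neither chemical. Of the 64 arrays of the study, which cover hindlimb and tail in 20 groups, 26 hold tail RNA and 9 are described here. They were chosen by their titles as tail at 48 h with PER (3 arrays), with PTU (3 arrays) or as control of the inhibitor set (3 arrays). Each array holds amplified, P32-labelled RNA of the tail of 1 animal. Animals were drawn from more than 1 tank per chemical, with no tank given for the arrayed ones. The p-values therefore treat each tadpole with its array as 1 unit and take no account of tanks. Their spread is fitted over all 26 tail arrays. MMI, methimazole at 100 mg/L, was the third inhibitor of the set (3 tail arrays) and serves below for 1 comparison. The remaining tail arrays were of tadpoles given the thyroid hormones T3 or T4 and of the controls of those sets. They enter the normalization and the fitted spread but none of the comparisons. Every inhibitor was tested at 1 dose and, in tail, at 1 time.

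Thyroid hormone is made in the gland from iodide, which the sodium-iodide symporter carries into the cell and thyroid peroxidase attaches to thyroglobulin. Perchlorate competes with iodide at the symporter, and PTU and methimazole block the peroxidase, so each lowers hormone synthesis while hormone already stored can still be released. In the tadpole tail the hormone starts resorption of muscle, notochord and epidermis at the climax of metamorphosis, and the tail of an earlier tadpole is still a growing organ.

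No gene was shown to change in the tail at 48 h when PER and PTU were averaged with equal weight and set against the controls. The array carries 406 duplicate probe pairs, of which 53 were bright enough to test, and 0 of them passed an adjusted p of 0.05 in limma, which is 0% in either direction. At an unadjusted p under 0.05 there was 1 lower pair (1.89%) and 0 higher pairs, where 0.05 of the pairs would be 2.65. The tested pairs were 29 with a gene name and 24 without one. Differences below 0, none of them passing, were found at all pairs for glycolytic enzymes. Differences above 0, none passing either, were found at the tail gene thdl18.S and at pcna.S, a gene of DNA replication. The tail gene thdl17.L was above 0 in the pooled fit, at 0.26, but at -0.11 with PTU alone. The median difference over all tested pairs was -0.06 on the log2 scale, with 33 pairs below 0 and 20 above.

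The precision of the fit sets what could be shown. Its spread is shared by all 26 tail arrays and is not that of the 9 arrays alone. It can be wider than the spread in the groups compared, as for thdl18.S below, or narrower, as for pcna.S. For pcna.S the SD was 0.22 with PER, 1.28 with PTU and 0.75 in controls, and the pooled SE was 0.37. The 95% interval of a pooled difference reached a median of 0.72 to either side on the log2 scale, a 1.64-fold change, with a range of 0.32 to 1.55. For 26 of the 53 pairs the interval lay wholly within a 2-fold change in either direction. For the others a 2-fold change in at least 1 direction was not excluded by the interval. The test covers bright transcripts only, and 301 of the 406 pairs were above background on none of the 9 arrays. A pair counted as above background where the mean intensity of its spots exceeded 2 noise SD of the array, and a test was run where 3 or more of the arrays being compared met that level.

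**Figure D1:**
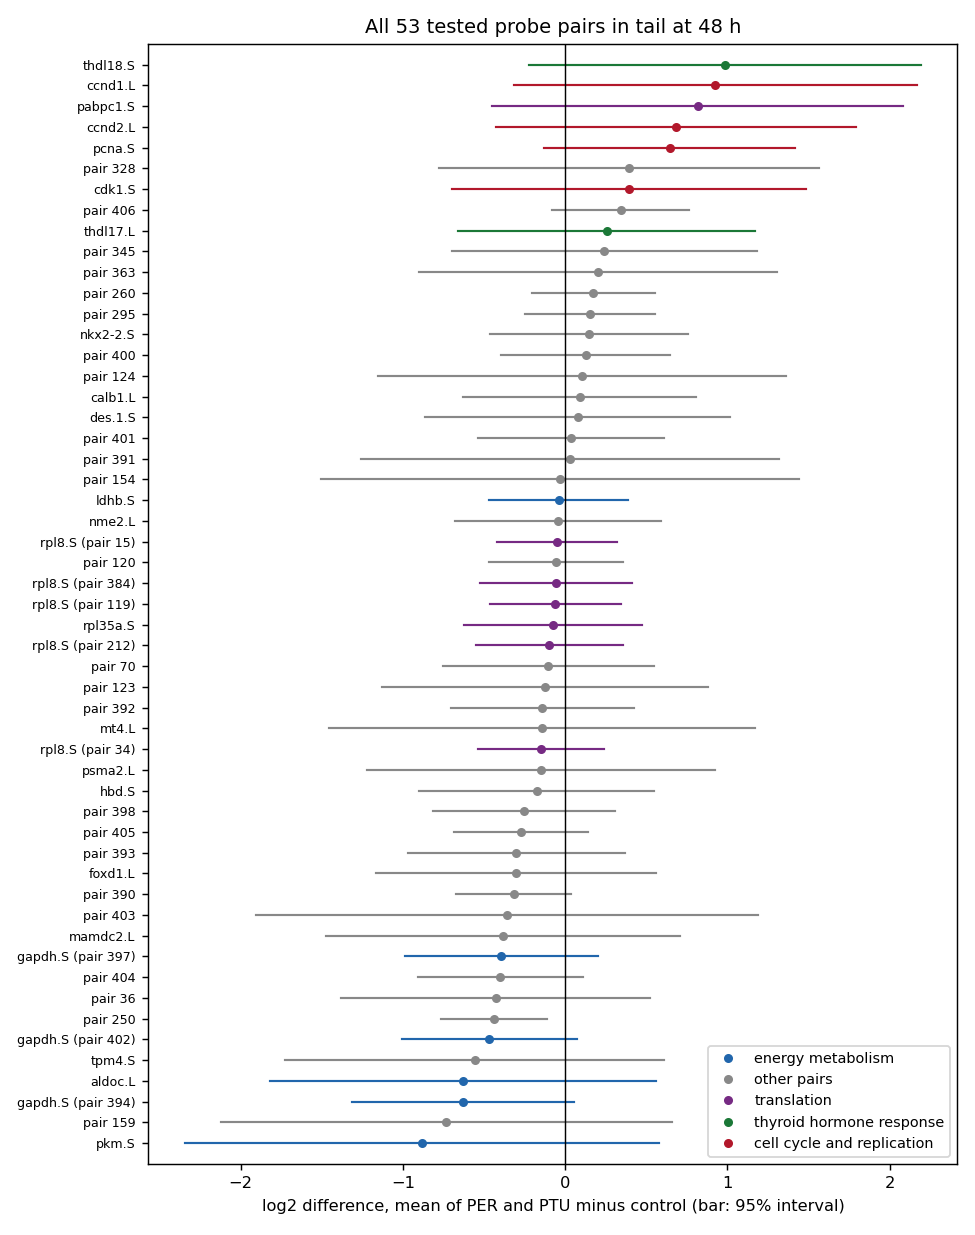
Pooled difference of all 53 tested pairs in tail at 48 h: the horizontal axis is the log2 difference, the mean of PER and PTU minus control, points are fitted differences and bars are 95% intervals. Colours mark the gene lists; 1 interval, that of pair 250, does not reach 0, and no pair passed the adjusted threshold.

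The arrays of the inhibitor groups were noisier than those of the controls. Blank spots numbered 35 to 41 on the PER and PTU arrays, against 11 to 17 on the control arrays, with no overlap. The noise SD of the deposited intensity was 301 to 503 with PER or PTU, against 211 to 380 in controls. Duplicate spots correlated across pairs with r of 0.894 to 0.951 with PER or PTU, against 0.958 to 0.967 in controls. The number of pairs above background was 43 to 59 with PER or PTU and 53 or 54 in controls. The part of blanks and noise in the differences below was not tested.

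Levels spread more between the arrays of each inhibitor group than between those of the controls. Each animal has 1 array, so differences between animals and noise of the arrays cannot be told apart. Over the 53 tested pairs the SD between the animals of a group had a median of 0.35 with PER and 0.52 with PTU on the log2 scale, and of 0.27 in controls. The SD exceeded that of the controls for 36 pairs with PER and for 44 with PTU. It was over 1 for 7 pairs with PER, for 12 with PTU and for 0 in controls. In the other tail groups of the study the median SD over the same pairs was 0.28 to 0.59, and 2 to 14 pairs had an SD over 1, so the controls of the inhibitor set were the most uniform group and the spread with PER and PTU was within the range of the other groups.

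PTU replicates 1 and 3 were the lowest arrays more often than the rest. Of 52 pairs measured on all 9 arrays, PTU replicate 1 was the lowest array for 16 and PTU replicate 3 for 13, and each other array was the lowest for 2 to 5. PTU replicate 3 was also the highest array for 10 pairs, against 3 to 7 for each of the others. A distance of more than 1 on the log2 scale from the mean of the group mates was found for 16 pairs in PTU replicate 3 and nearly as often, for 15, in PTU replicate 2. It was found for 9 in PTU replicate 1, for 5 to 9 in the PER animals and for 4 or 5 in the controls. Results that rest on PTU replicate 3 are given below with and without it.

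**Figure D2:**
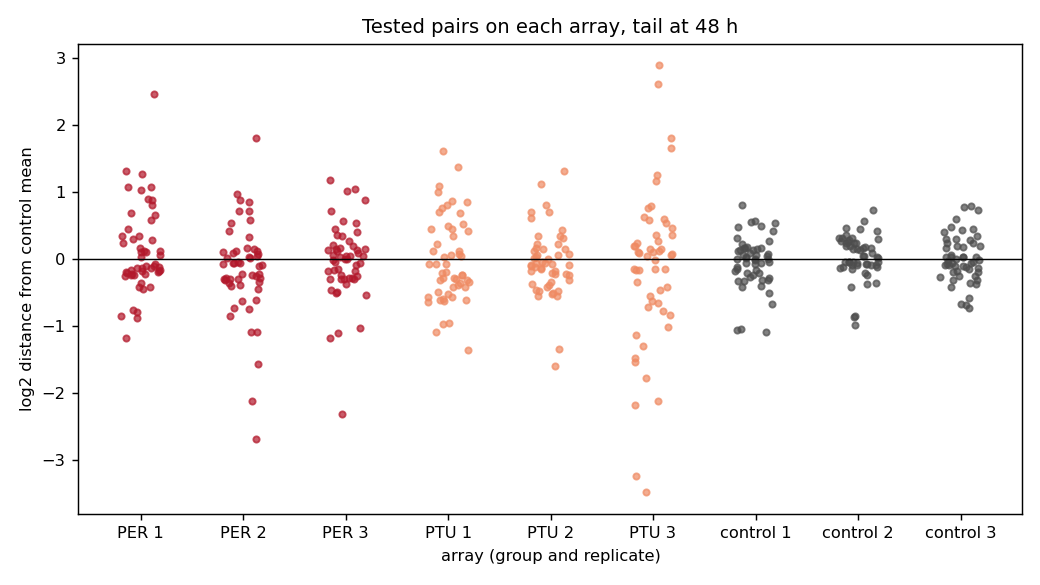
Each of the 9 arrays against the mean of the controls: the vertical axis is the log2 distance of a tested pair on that array from the control mean, 1 point for each tested pair, with PER, PTU and control arrays from left to right. PTU replicate 3 has the widest scatter, and the control arrays have the narrowest. Each control array is part of the control mean, which by itself narrows the scatter of the controls.

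Glycolytic enzymes gave differences in 1 direction, none of which passed. All 6 of their pairs on the array, for 4 genes, were tested, and 0 passed. All 6 differences were below 0, with a median of -0.55 against -0.06 over all tested pairs, and 3 of the 6 pairs stand for the same gene. The list also names genes of mitochondrial respiration, none of which is on the array under a listed symbol. In whole tail, fewer cells of a type and less RNA per cell cannot be told apart.

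Glyceraldehyde-3-phosphate dehydrogenase, gapdh.S, which oxidises glyceraldehyde 3-phosphate, is spotted as 3 probe pairs. Pair 394 had deposited intensities of 1201, 1774 and 1559 with PER and 1224, 1705 and 2468 with PTU, against 1894, 1925 and 2436 in controls. After normalization its log2 levels were 11.07, 11.96 and 11.71 with PER and 10.88, 11.71 and 12.32 with PTU, against 11.91, 12.10 and 12.71 in controls. The lowest control lay above 2 of 3 PER animals and above 2 of 3 PTU animals, and PTU replicate 3 lay within the range of the controls. The pooled difference was -0.63 (SE 0.33, 95% interval -1.31 to 0.05), below the control mean in 5 of 6 animals, with an adjusted p of 0.773. Pair 402 gave -0.47 (SE 0.26, 5 of 6 below) and pair 397 gave -0.39 (SE 0.29, 4 of 6 below). The 3 pairs measure 1 gene in the same animals and are no independent replicates. On the deposited scale the 3 differences shrank to -0.21, -0.07 and -0.05 for pairs 394, 402 and 397. That scale has no normalization between arrays beyond any scaling made before deposit, which was not given.

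Pyruvate kinase, pkm.S, which makes pyruvate and ATP in the last step of glycolysis, differed through 1 animal of each inhibitor group. Its log2 levels were 12.69, 9.96 and 12.65 with PER and 12.41, 12.44 and 10.47 with PTU, against 12.77, 12.84 and 12.34 in controls. PER replicate 2 and PTU replicate 3 were not above background, and the other 4 treated animals lay within the range of the controls. The pooled difference was -0.88 (SE 0.70, 95% interval -2.34 to 0.58, adjusted p = 0.849), the most negative of the 53. It was -0.43 without PER replicate 2 and -0.56 without PTU replicate 3.

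Aldolase C, aldoc.L, which splits fructose bisphosphate, varied in all groups. Its levels were 12.02, 10.57 and 12.10 with PER and 12.49, 10.54 and 11.37 with PTU, against 11.09, 12.60 and 12.73 in controls. The 2 lowest, PER replicate 2 and PTU replicate 2, were not above background. Control replicates 2 and 3 lay above all 6 treated animals, and control replicate 1 lay within the treated range. The pooled difference was -0.63 (SE 0.57, adjusted p = 0.915) and had no settled size. It was -1.15 without control replicate 1, -0.33 without control replicate 3, -0.40 without control replicate 2, -0.38 without PER replicate 2 and -0.40 without PTU replicate 2, and -0.16 on the deposited scale. Lactate dehydrogenase, ldhb.S, which interconverts pyruvate and lactate, was the brightest of all pairs on 8 of 9 arrays, and quantile normalization gives the brightest pair of every array nearly the same level. Its deposited intensity averaged 22044 ± 8907 with PER and 20262 ± 1224 with PTU, against 26309 ± 9173 in controls (SD, n = 3 each). The normalized difference was -0.04 (SE 0.21, adjusted p = 0.923), at a level held near the top by the normalization, and 0.01 without PER replicate 1. It was -0.60 with median centring, -0.51 with centring on bright pairs and -0.27 on the deposited scale, with no adjusted p under 0.05 in limma.

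**Figure D3:**
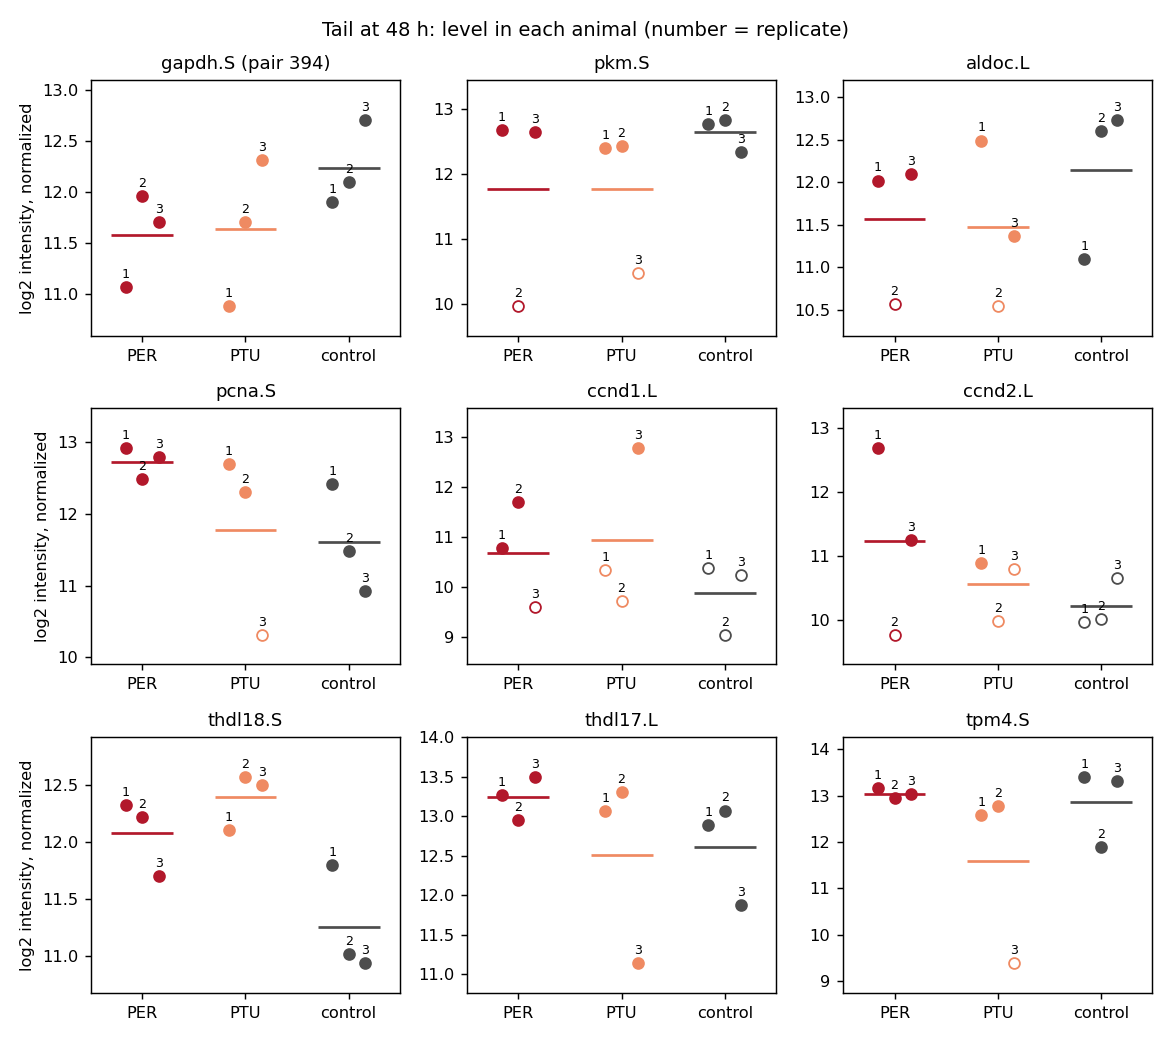
Level of 9 genes in each animal: the vertical axis of each panel is the normalized log2 intensity, with PER, PTU and control from left to right, numbers give the replicate, filled points were above background, open points were not, and lines are group means. PTU replicate 3 lies far below its group mates for pcna.S, thdl17.L and tpm4.S, and thdl18.S has all 6 treated animals above the control mean.

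Genes of proliferation were above background unevenly. Of 11 such pairs on the array, 4 were tested and 0 passed. All 4 differences were above 0, between 0.39 and 0.93, but 3 of the 4, those for ccnd1.L, ccnd2.L and cdk1.S, were above background on 0 of 3 control arrays and entered the test only through treated animals, so their sign is partly set by the filter. The remaining 7 pairs, for ccne1.L, cdk2.S, rrm1.L and the helicase subunits mcm2.L, mcm3.L, mcm4.S and mcm5.L, were not tested, and among them only mcm4.S was above background on any of the 9 arrays, on 1 control array.

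The clamp of DNA polymerase, pcna.S, was above background on 8 of 9 arrays, the exception being PTU replicate 3. Its deposited intensities were 6898, 2092 and 4628 with PER and 4571, 2656 and 393 with PTU, against 2868, 1398 and 528 in controls. Normalized, the levels were 12.92, 12.49 and 12.79 with PER and 12.70, 12.31 and 10.32 with PTU, against 12.42, 11.48 and 10.93 in controls. All PER animals lay above all controls, while PTU replicate 1 lay above every control, replicate 2 within their range and replicate 3 below them all. The pooled difference was 0.64 (SE 0.37, 95% interval -0.13 to 1.42, adjusted p = 0.773), above the control mean in 5 of 6 animals. It moved with single animals, to 1.01 without PTU replicate 3 (adjusted p = 0.0548 in limma), to 1.05 without control replicate 1 and to 0.30 without control replicate 3.

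Cyclin D1, ccnd1.L, which drives entry into the cell cycle with its kinase partners, had levels of 10.78, 11.70 and 9.60 with PER and 10.34, 9.71 and 12.78 with PTU, against 10.38, 9.05 and 10.24 in controls. Of the treated animals 3 were above background (PER replicates 1 and 2 and PTU replicate 3) and 0 of 3 controls were. The fitted difference was 0.93 (SE 0.60, interval -0.32 to 2.17, adjusted p = 0.799). The treated mean, which includes animals not above background, was 1.25-fold above the faintest measurable signal of the control arrays. This fold is no lower limit of the difference. Without PTU replicate 3 the fitted difference was 0.47.

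Cyclin D2, ccnd2.L, was above background in 3 of 6 treated animals and 0 of 3 controls. Its treated mean was 1.30-fold above the faintest measurable signal of the control arrays, again no lower limit. The fitted difference was 0.68 (SE 0.53, interval -0.43 to 1.79), so no rise was shown. This difference became 0.32 without PER replicate 1, the highest animal at 12.68, and the other 8 animals lay between 9.77 and 11.25. For the mitotic kinase cdk1.S the same fold was 1.02, with a fitted difference of 0.39 (SE 0.53, interval -0.70 to 1.49). Of its treated animals, 3 of 6 lay above the control mean.

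Of the hormone response genes, 7 pairs are on the array and 2 were tested, thdl17.L and thdl18.S, and 0 passed. The untested ones are nfib.L and thibz.L, which encode transcription factors, and the proteases fap.L, mmp9.1.S and mmp2.S, which act on extracellular matrix. They were above background on 0 of 9 arrays, except mmp2.S, which was so on 1 control array. The receptor gene thrb and the early response gene klf9 are not among the named pairs.

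The tail gene thdl18.S gave the largest positive pooled difference among the 53 pairs. Its deposited intensities were 4093, 1922 and 2288 with PER and 3401, 3149 and 3068 with PTU, against 1891, 948 and 553 in controls. Normalized, the levels were 12.33, 12.22 and 11.71 with PER and 12.11, 12.57 and 12.50 with PTU, against 11.80, 11.02 and 10.94 in controls. All 6 treated animals lay above the control mean and 5 of 6 above every control, with PER replicate 3 just below control replicate 1. The difference was 0.98 (SE 0.58, 95% interval -0.22 to 2.19, adjusted p = 0.773). The SD was 0.33 with PER, 0.25 with PTU and 0.48 in controls, and the SE also holds the spread of the other tail groups. With MMI, for example, the SD was 1.03. The difference kept its sign at 0.83 to 1.29 over the 23 alternative settings run, with a lowest adjusted p of 0.258 in limma.

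Its companion thdl17.L was above background on all 9 arrays. The levels were 13.26, 12.95 and 13.50 with PER and 13.07, 13.31 and 11.14 with PTU, against 12.89, 13.07 and 11.88 in controls. The groups overlapped, with control replicate 3 and PTU replicate 3 as the lowest animals. The difference was 0.26 (SE 0.44, adjusted p = 0.923), 0.60 without PTU replicate 3 and -0.11 without control replicate 3. Apart, it was 0.62 (SE 0.51) with PER and -0.11 (SE 0.51) with PTU.

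The ribosomal protein genes had small differences and small errors. Ribosomal protein L8, rpl8.S, is spotted as 5 pairs, with pooled differences of -0.15, -0.10, -0.06, -0.06 and -0.05 for pairs 34, 212, 119, 384 and 15 and SE of 0.18 to 0.23. Pair 15, for example, read 11.00, 11.33 and 11.08 with PER and 10.93, 11.11 and 11.29 with PTU, against 11.32, 11.09 and 11.11 in controls, with full overlap. Ribosomal protein L35a, rpl35a.S, differed by -0.07 (SE 0.26). On the deposited scale these 6 differences turned positive, 0.07 to 0.24, beside a median of 0.13 over all tested pairs on that scale. Poly(A)-binding protein, pabpc1.S, which binds the tails of mRNAs, was above background in 4 of 6 treated animals and 0 of 3 controls, so it entered the test only through treated animals and its sign is partly set by the filter. Its treated mean was 1.35-fold above the faintest measurable signal of the control arrays, which is no lower limit of the difference. The fitted difference was 0.82 (SE 0.61, adjusted p = 0.849), with 6 of 6 animals above the control mean.

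Of 10 listed muscle markers, des.1.S and tpm4.S are on the array. The first was above background on 9 of 9 arrays and tpm4.S on 8. The intermediate filament gene des.1.S was level, at 12.51 to 12.70 with PER and 12.63 to 13.33 with PTU, against 12.28 to 12.93 in controls (difference 0.08, SE 0.45). Tropomyosin 4, tpm4.S, which binds actin filaments, had a pooled difference of -0.56 (SE 0.56, adjusted p = 0.915) that was -0.01 without PTU replicate 3. The myogenic factor myf5.L was above background on 1 PTU array and no other of the 9.

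Markers of other cells in the tail gave little to compare. The haemoglobin gene hbd.S, the only blood marker on the array, differed by -0.18 (SE 0.35). Markers of notochord and cartilage (col2a1.L), nerve (mbp.S) and immune cells (il1b.S, mmp9.1.S) were above background on 0 of 9 arrays, and no listed marker of epidermis or liver is on the array. The metallothionein mt4.L, which binds metal ions, differed by -0.14 (SE 0.63) and the proteasome subunit psma2.L by -0.15 (SE 0.51). The homeodomain gene nkx2-2.S differed by 0.15 (SE 0.29) and calbindin, calb1.L, a calcium-binding protein, by 0.09 (SE 0.34). Lists of nuclear receptors (7 pairs), cytoskeleton and protein folding (3 pairs) and matrix (3 pairs) had 0 tested pairs each. The repressor gene rest.S was above background on 2 PTU arrays, 0 PER arrays and 0 control arrays, and had no test.

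The smallest p of the pooled comparison belonged to pair 250, which has no gene name. Its levels were 10.84, 10.72 and 10.45 with PER and 10.34, 10.47 and 10.23 with PTU, against 11.04, 10.82 and 10.98 in controls. Of the treated animals 5 of 6 lay below every control, and PER replicate 1 lay just above the lowest. The difference was -0.44 (SE 0.16, 95% interval -0.76 to -0.11) with an adjusted p of 0.566 in limma. Only 1 of 6 treated arrays was above background at this pair, against 3 of 3 control arrays. The pair thus met the filter through the controls, and its sign is partly set by the filter. On the deposited scale its difference was 0.00.

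Each inhibitor was then set apart against the same 3 controls, which both comparisons share, so that their values are given side by side and not as independent results. In limma 48 pairs were tested for each, and 0 passed (0% in each direction for each). With PER, 1 pair was higher at an unadjusted p under 0.05 (2.08%) and 0 were lower. With PTU, 1 was higher (2.08%) and 2 were lower (4.17%), where 0.05 of the pairs would be 2.4. Groups did not overlap for 2 pairs higher (4.17%) and 1 lower (2.08%) with PER, and for 2 higher (4.17%) and 3 lower (6.25%) with PTU.

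The gene with the smallest p under PER was pcna.S, at 1.12 (SE 0.43, 95% interval 0.23 to 2.01). All 3 PER animals lay above all 3 controls, and the adjusted p in limma was 0.754. With PTU the same gene gave 0.17 (SE 0.43), with replicate 3 below the controls, while replicates 1 and 2 lay above their mean. For gapdh.S pair 394 the difference was -0.66 (SE 0.38) with PER and -0.60 (SE 0.38) with PTU. The PTU value was -0.94 without PTU replicate 3, -0.23 without PTU replicate 1 and -0.37 without control replicate 3, and the PER value was -0.40 without PER replicate 1 and -0.42 without control replicate 3. For pkm.S the difference was -0.88 (SE 0.81) with each. For aldoc.L it was -0.58 with PER and -0.67 with PTU.

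With PTU the named genes of smallest p were tpm4.S, at -1.29 (SE 0.65, adjusted p = 0.705 in limma), thdl18.S, at 1.14 (SE 0.67, adjusted p = 0.705), and gapdh.S. Every PTU animal exceeded every control for thdl18.S, and with PER its difference was 0.83 (SE 0.67). For tpm4.S the levels were 13.17, 12.94 and 13.03 with PER and 12.58, 12.78 and 9.39 with PTU, against 13.41, 11.89 and 13.31 in controls. PTU replicate 3, with a deposited intensity of -104, was not above background, and without it the PTU difference was -0.19. Pair 250 gave -0.60 with PTU (SE 0.18, adjusted p = 0.131 in limma) and -0.28 with PER (SE 0.18). It was above background on 0 of 3 PTU arrays and 3 of 3 control arrays. With PTU it was therefore tested only through the controls, and its sign is partly set by the filter. The control mean was 1.17-fold above the faintest measurable signal of the PTU arrays. On the deposited scale the PTU difference was -0.10.

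**Figure D4:**
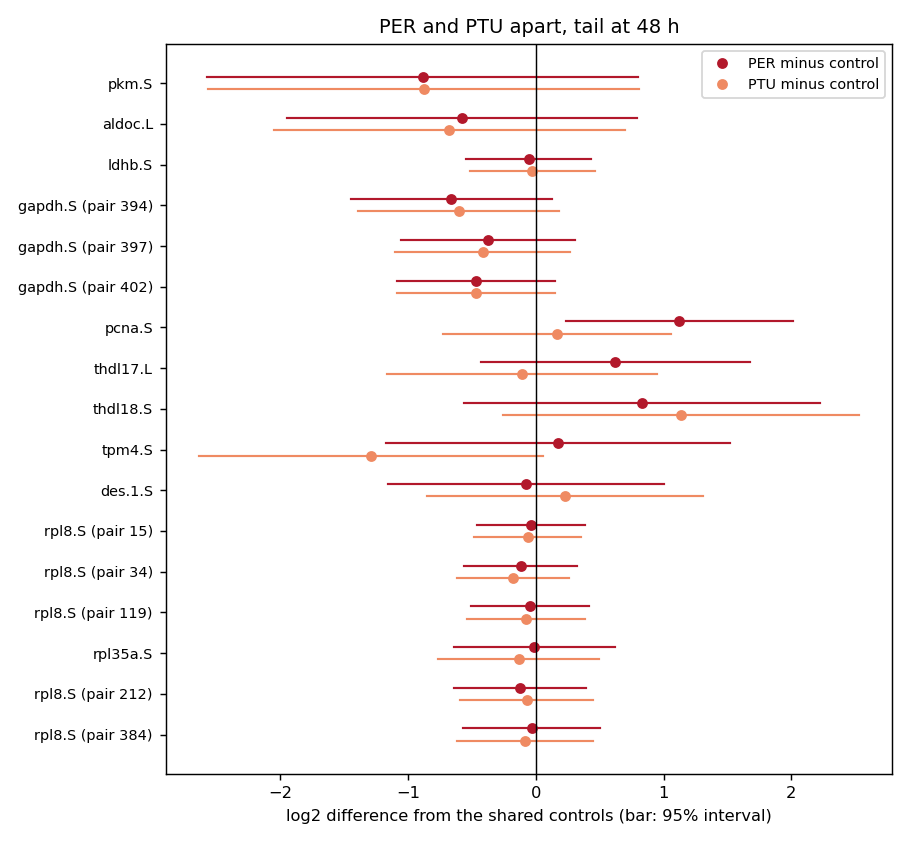
PER and PTU apart: the horizontal axis is the log2 difference from the 3 shared controls, points are fitted differences and bars are 95% intervals, with PER above PTU for each pair. The points of pcna.S, thdl17.L and tpm4.S lie farther apart than those of the glycolytic and ribosomal pairs.

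Set directly against PTU, with no control array in the comparison, PER gave 0 calls among 51 pairs (0%), with 2 pairs higher (3.92%) and 1 lower (1.96%) at an unadjusted p under 0.05 in limma. Tropomyosin 4, tpm4.S, differed by 1.46 (SE 0.65, 95% interval 0.12 to 2.81, adjusted p = 0.626), with all PER animals above all PTU animals. Its SD was 0.12 with PER and 1.90 with PTU, and the SE and interval use the spread shared by all tail groups, which understates that of PTU. The clamp gene pcna.S differed by 0.96 (SE 0.43, adjusted p = 0.626) and thdl17.L by 0.73 (SE 0.51, adjusted p = 0.991). All 3 rest largely on PTU replicate 3, without which they were 0.37, 0.23 and 0.05. The smallest p was that of the unnamed pair 406, at -0.59 (SE 0.25, adjusted p = 0.626), with 2 PTU animals measured.

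Between PER and PTU the glycolytic pairs differed by -0.06 to 0.10. The 95% interval was -0.85 to 0.73 for gapdh.S pair 394, which leaves a 2-fold difference outside it, and -1.69 to 1.68 for pkm.S, which does not. For 24 of the 51 pairs the interval excluded a 2-fold difference in either direction.

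Against MMI, the remaining inhibitor of the set, the mean of PER and PTU gave 0 calls among 57 pairs (0%) and more small p-values than any comparison above. At an unadjusted p under 0.05 in limma there were 11 pairs higher (19.3%) and 2 lower (3.51%), where 0.05 of the pairs would be 2.85, and the smallest adjusted p was 0.173. Of the higher pairs, 5 were for rpl8.S, 1 gene in the same animals, and are no independent counts. Those 5, hbd.S and the unnamed pair 120 were each above background on 1 of 3 MMI arrays. They met the filter through the PER and PTU arrays, so their sign and the count are partly set by the filter. The count in both directions was 13, and it was 5 without MMI replicate 3, 5 without PER replicate 3 and 14 without PTU replicate 1. The groups did not overlap for 2 pairs (3.51%), both for rpl8.S, and both were higher with PER and PTU.

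For rpl8.S pair 15 the levels were 11.00, 11.33 and 11.08 with PER and 10.93, 11.11 and 11.29 with PTU, against 10.76, 10.44 and 10.32 with MMI. The difference was 0.62 (SE 0.18, 95% interval 0.23 to 1.00, adjusted p = 0.173), with 6 of 6 treated animals above the MMI mean. All 7 translation pairs, which stand for 3 genes with 5 of the pairs for rpl8.S, were above 0 here. Their median was 0.51 against 0.19 over all tested pairs. On the deposited scale pair 15 turned to -0.07 and pair 119 to -0.11, while the median of all tested pairs moved to -0.73, and the split of pairs was 1 above 0 and 56 below, in place of 34 and 23.

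The haemoglobin gene hbd.S had levels of 11.05, 11.47 and 12.00 with PER and 11.26, 12.06 and 12.10 with PTU, against 11.21, 10.63 and 10.60 with MMI. Its difference was 0.85 (SE 0.35, adjusted p = 0.216), with 6 of 6 above the MMI mean, and 0.05 on the deposited scale. The pairs for rpl8.S and hbd.S were above background on all 6 PER and PTU arrays and on 1 of 3 MMI arrays, and the noise SD of the MMI arrays was 426 to 746. The metallothionein mt4.L had levels of 11.98, 11.72 and 10.93 with PER and 12.81, 11.72 and 12.65 with PTU, against 13.56, 13.79 and 12.74 with MMI. Its difference was -1.39 (SE 0.63, adjusted p = 0.216), with 0 of 6 animals above the MMI mean.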

How the data were processed

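The authors' deposited series table holds linear P32 intensity values, many of them negative, for 812 spots in 406 neighbouring pairs. The scanner, background method and scaling were not given in the labels or the table. Gene symbols of 237 pairs come from the platform's annotation, 233 of them updated through Xenopus_laevis_v10.1 (names only). The endings L and S mark subgenomes.

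Spots were passed through normexp (offset 50), taken to log2, quantile normalized over the 26 tail arrays and averaged over duplicates. Noise was 1.4826 times the median size of an array's negative values. Models were fitted by limma 3.58.1 (lmFit, eBayes; R 4.3.3, statmod 1.5.0) with 1 coefficient for each of the 8 tail groups, so the spread is shared with the hormone groups. Benjamini-Hochberg adjustment was made per comparison (5 comparisons, threshold 0.05). Intervals are 95%. The number of arrays limits the precision. The procedure was tested on simulated data. No arrays were identical.

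Named genes are those passing or, where fewer than 4 passed, the 12 named pairs of smallest unadjusted p in the pooled comparison and the 3 in each other one, with the tested members of the gene lists. The arrays and lists were chosen with earlier results of these data known. Replicate numbers were checked for pairing: deviations from group means of same-numbered arrays correlated at -0.40 to 0.56 (median 0.02), so the numbers were not treated as pairs. Alternatives covered the arrays fitted, scaling, background, filters, weights, the block, each array left out and the fold rule stated in the labels. Where no array of a group was above background at a pair, a second fold is given. It sets the mean of the other group against, per array, the lowest signal among pairs above background or the pair's own signal, whichever is higher. That fold leaves out the spread between animals and is no lower limit of the difference. No probe sequence was used here.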

Additional observations from a re-analysis of the deposited data

Results flagged for a closer look

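Over the 6 inhibitor-exposed tails, 28 pairs of named genes or of lists were examined for an animal far from the others, and 3 were found, all in PTU replicate 3. Its tpm4.S level was 9.39, with a gap to the next animal of 0.843 of the whole range. Its pcna.S level was 10.32 (0.765 of the range) and its thdl17.L level was 11.14 (0.767 of the range). At tpm4.S and pcna.S PTU replicate 3 was not above background, while at thdl17.L it was. The critical value for 6 samples is 0.625, and chance alone picks out about 1 in 20 groups.

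For tpm4.S all 3 PER animals lay above the control mean and all 3 PTU animals below it. Control replicates 1 and 3, at 13.41 and 13.31, lay above every PER animal, and control replicate 2 was at 11.89. PTU replicates 1 and 2, at 12.58 and 12.78, lay within the control range. The direct difference was 1.46 with an adjusted p of 0.626 in limma, and 0.37 without PTU replicate 3.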

How the results depend on the processing

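The 5 comparisons had 0 calls under the alternatives run, apart from 4 cases with 1 call each. With a floor of 1 noise SD in place of normexp, PTU against control had 1 call, pair 250 at -1.05 (adjusted p = 0.0207 in limma). That pair was above background on 0 of 3 PTU arrays and 3 of 3 control arrays, so it was tested only through the controls and -1.05 rests on the floor, and its adjusted p in the other settings was 0.129 to 0.956. By the fold rule of the labels, which involves no test, 1 pair passed in PER against control (pcna.S, higher), 1 in PTU against control (thdl18.S, higher) and 1 in the mean of PER and PTU against MMI (mt4.L, lower). The replicate block gave 0 calls in all 5 comparisons and changed no call, and treating PER and PTU as 1 group, a setting added after seeing the data, gave 0.

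Values of single pairs changed sign in 37 combinations of pair and setting. On the deposited scale the pooled differences turned to 0.070 (rpl8.S pair 34), 0.24 (pair 15), 0.18 (pair 119), 0.13 (pair 212), 0.16 (pair 384), 0.10 (rpl35a.S), 0.075 (hbd.S), 0.080 (mt4.L), 0.21 (psma2.L), -0.05 (calb1.L) and 0.0040 (pair 250), and against MMI to -0.066 and -0.11 (rpl8.S pairs 15 and 119). The cause was not tested. That scale moved the median of all pooled differences by 0.19, with 39 pairs above 0 and 14 below, and median centring moved it by -0.13. With median centring calb1.L turned to -0.38, and with centring on bright pairs to -0.29.

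Leaving out 1 animal at a time, pooled differences spanned 0 for psma2.L (-0.69 to 0.27), mt4.L (-0.43 to 0.14), rpl8.S pair 119 (-0.12 to 0.017), pair 384 (-0.14 to 0.085), pair 15 (-0.097 to 0.023), pair 212 (-0.22 to 0.0034), rpl35a.S (-0.14 to 0.054), ldhb.S (-0.092 to 0.010), des.1.S (-0.13 to 0.19), nkx2-2.S (-0.056 to 0.36), calb1.L (-0.12 to 0.23) and thdl17.L (-0.11 to 0.60). Signal over background limits all of this to bright pairs.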
